A study of Mus musculus with 46 samples.

Results

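The insulin-like growth factor (IGF) ligands, receptors and binding proteins were described in mouse thyroid tumour cell lines with and without the transcription factor MAX. The set was defined by gene symbol and held 10 genes: Igf1, Igf2, Igf1r, Igf2r, Igfbp2, Igfbp3, Igfbp4, Igfbp5, Igfbp6 and Igfbp7. Of these 10, 8 were among the 14360 genes listed for the cell lines and 6 among the 14056 genes listed for the Max addback experiment. All 6 of the latter were listed in both tables, Igf2 and Igfbp4 were listed for the lines alone, and Igfbp6 and Igfbp7 were listed in neither. Igf1 and Igfbp2 entered the set because of their large difference with addback, so the addback values of the members are given as a description, without a test.

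The series holds 46 RNA-seq samples, of which 14 cell libraries had values and the other 32, all of tumours, were not analysed here. Conditional alleles of Rb and p53, with or without one of Max, had been recombined in the mice by a tamoxifen-inducible Cre driven by Ascl in neuroendocrine cells. RP lines were Rb/p53 mutant (4 libraries) and RPM lines were Rb/p53/Max mutant (4 libraries). In a second experiment, Rb/p53/Max mutant cells were transduced with an empty vector (3 libraries) or with a Max expressing vector, termed addback (3 libraries). All 14 libraries therefore lacked Rb and p53 function by label, and no library of normal thyroid was among them. The library names give both transduced groups the line name of RPM replicate 2, so by name the addback experiment describes 1 line. No label says that its replicates were separate transductions, and its spread may be technical.

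IGF1 and IGF2 are secreted peptides that signal through the receptor tyrosine kinase IGF1R to insulin receptor substrates, PI3 kinase and AKT. IGF2R, the cation-independent mannose 6-phosphate receptor, sorts lysosomal enzymes and clears IGF2 without signalling as IGF1R does. The secreted binding proteins hold most extracellular IGF, and release it or keep it from the receptor. MAX is the obligate partner of MYC and of the MXD and MNT repressors, and its dimers bind the E-box CACGTG, which reads the same on both strands.

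The 250 bases before each RefSeq start (GRCm38.p6) were searched for CACGTG at 14 starts of the 10 genes. Igfbp2 had 1 match and Igf2r had 2, and no match was found at the searched starts of the other 8 genes. The other Igfbp2 window, at chr1:72825137-72825386, held no match. The Igf1 window, at chr10:87860861-87861110, lay inside the gene (chr10:87858265-87937042), so the bases before the outer end of Igf1 were not searched. The Igfbp2 match began 142 bases before the start, and those of Igf2r began 48 and 7 bases before it. The sequences of both windows are shown 5′ to 3′ on the strand of the gene, Igfbp2 at chr1:72824230-72824479 (plus strand) and Igf2r at chr17:12769707-12769956 (minus strand), because Igfbp2 is the binding protein with the largest addback difference and Igf2r the member with the most matches. Capitals mark CACGTG.
Igfbp2: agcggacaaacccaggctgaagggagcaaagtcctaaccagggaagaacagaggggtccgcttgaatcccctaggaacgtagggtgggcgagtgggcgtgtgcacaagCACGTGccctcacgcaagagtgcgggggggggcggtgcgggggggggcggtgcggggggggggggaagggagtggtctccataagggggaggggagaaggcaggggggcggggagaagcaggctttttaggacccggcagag
Igf2r: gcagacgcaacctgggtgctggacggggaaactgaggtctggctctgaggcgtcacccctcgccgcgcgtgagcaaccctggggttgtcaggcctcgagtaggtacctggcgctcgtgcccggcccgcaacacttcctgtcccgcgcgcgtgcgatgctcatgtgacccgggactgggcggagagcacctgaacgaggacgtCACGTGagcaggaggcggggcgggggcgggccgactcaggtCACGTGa
Windows of this length held CACGTG at 6.02% of 32851 RefSeq starts and in 9.81% of the 11348 listed genes matched by symbol, and held it at least 2 times in 0.908% of those genes. A match describes letters in the window and is not a measured binding site.

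The libraries held 6738614 to 8498396 reads in listed genes, and 3 reads were worth 0.353 to 0.458 CPM, the read count scaled to the size of the library. Neuroendocrine markers were present in all 14 libraries (9 of 10 listed, summed level 4595 to 23183 CPM), while the thyroid follicular markers Tg, Tshr and Foxe1 were not listed. The normalised read count of Max, counted over the whole gene, was 44.7 to 65.2 CPM in RP lines, 68.9 to 103 CPM in RPM lines, 83.1 to 96.0 CPM with empty vector and 220 to 251 CPM with addback. A whole-gene count does not show the loss of an exon, so it checks the addback and not the deletion. The mouse number in the name of RPM replicate 1 recurs on tumours labelled Rb/p53 mutant, and the comparison of the lines is given with and without it. Addback replicate 3 stood apart from the other 2 addback libraries: divided by its degrees of freedom, the chi-square of the counts of 2 libraries reached 15.5 in that group and 1.76 to 1.9 among the empty vector libraries. Summed Y-linked transcripts were 410 to 423 CPM in the empty vector libraries, 275 CPM in untransduced RPM replicate 2 and 0 to 0.257 CPM in the addback libraries. Xist, the X inactivation transcript, was at 1.14 to 1.86, 0.748 and 0.386 to 5.47 CPM there. Among the lines, RP replicate 2 and RPM replicate 3 had summed Y-linked transcripts of 0.120 and 0 CPM and Xist at 5042 and 1958 CPM. The other lines held Y-linked transcripts, RP replicate 4 with Xist at 344 CPM. Whether the addback cells were the same cells as the others of that name was not tested. In every ratio of the transduced groups below, the returned Max and the Y-linked difference cannot be told apart.

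The first comparison asked which transcripts differed between tumour cells with and without Max. None of the 8 members passed limma's test between RPM and RP lines at an adjusted p under 0.05, against 0.334% of all 14360 genes. Igf2 alone, 1 of 8, had an unadjusted p under 0.05, as did 15.9% of all genes. None of the 8 had libraries that did not overlap between the groups, against 9.37% of all genes. edgeR's quasi-likelihood test and DESeq2 on the recovered reads likewise called 0 of 8, against 0.0209% and 4.58% of all genes. Each had 1 of 8 at an unadjusted p under 0.05, against 14.9% and 17.4% of all genes. DESeq2 gave no adjusted p for Igfbp2 and Igfbp3. Without RPM replicate 1, limma again called 0 of 8, while the number of genes called over the whole table went from 48 to 261. The authors' deposited table called 4 of the 8, against 4.19% of all genes: Igf1, Igf2 and Igfbp2 lower and Igfbp3 higher in RPM lines.

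**Figure D1:**
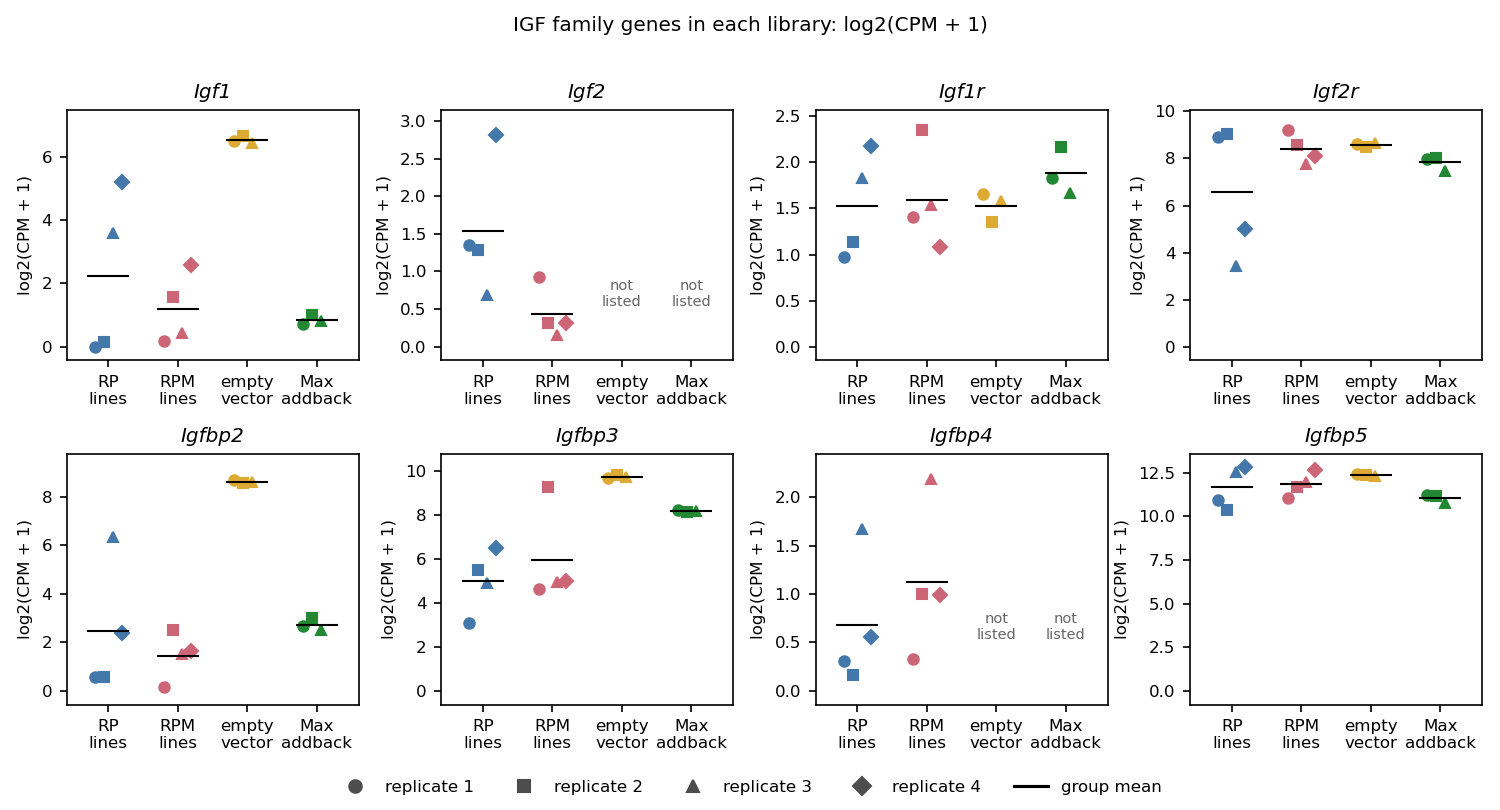
Level of the 8 listed members in each library on the log2(CPM + 1) scale, by group; symbols stand for replicates and black lines for group means. The RP and RPM lines overlap for every member, and the 3 empty vector libraries lie above the 3 addback libraries for Igf1, Igf2r, Igfbp2, Igfbp3 and Igfbp5.

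Igf1, the main circulating growth factor of the family, spans chr10:87858265-87937042 on the plus strand (GRCm38). The 4 RP lines, in the order of their replicate numbers, held 0, 0.120, 10.97 and 36.0 CPM of it, and the RPM lines held 0.128, 1.99, 0.355 and 4.95 CPM. The 0 in RP replicate 1 allows a level of up to 0.361 CPM, the value of 3 reads, a bound on counting error only. RP replicates 3 and 4 were the highest of the 8 lines, and RP replicates 1 and 2 lay among the lowest, so the groups overlapped. The difference of RPM from RP lines was -1.05 ± 1.19 (SE, log2 scale, limma adjusted p = 0.689, exact permutation p = 0.543, n = 4 each). The smallest two-sided p that this exact permutation test can give is 0.0286. Without RP replicate 4 the difference was -0.06, and without RPM replicate 1 it was -0.71. In the authors' deposited table it was -2.66 with an FDR of 0.0149.

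The second comparison asked which transcripts differ when Max is returned to cells that lack it. With empty vector, Igf1 was at 90.0, 99.7 and 86.0 CPM, and with addback at 0.636, 0.996 and 0.771 CPM, which is 5, 8 and 6 reads. The groups lay far apart: the mean of 91.9 ± 7.08 CPM (SD, n = 3) with empty vector was 115 times the mean of 0.801 ± 0.182 CPM (SD, n = 3) with addback, and single pairs of libraries gave ratios of 86.3 to 157. The difference was -5.69 on the log2(CPM + 1) scale, or -5.68 without addback replicate 3. Untransduced RPM replicate 2, which carries the same line name, held Igf1 at 1.99 CPM (16 reads). The empty vector mean was 46.1 times this level and the addback mean 0.402 times it, so the addback libraries were the closer of the transduced groups to the untransduced library. The tables were normalised separately and there was 1 untransduced library, so no test was made. Reads of the overlapping antisense gene Igf1os cannot be told apart from those of Igf1 unless the counting used strand, and no source used here says whether it did.

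Igf2, the fetal growth factor of the family and an imprinted gene at chr7:142650766-142666816 (minus strand), was low in all lines. It was at 1.56, 1.44, 0.610 and 6.01 CPM in the RP lines and at 0.893, 0.249, 0.118 and 0.248 CPM in the RPM lines, the last 4 being 7, 2, 1 and 2 reads. RPM replicate 1 lay above RP replicate 3, and the other 3 RPM lines lay below all RP lines and under the level of 3 reads. The difference was -1.10 ± 0.43 (SE, log2 scale, limma adjusted p = 0.283, exact permutation p = 0.0571, n = 4 each). Without RPM replicate 1 it was -1.27 with an adjusted p of 0.185 by limma, and without RP replicate 4, the highest line, it was -0.68. The authors' deposited table gave -2.64 with an FDR of 0.0352. The antisense gene Igf2os, which overlaps Igf2, was at 0.842 to 4.71 CPM in RP lines and 0.125 to 1.40 CPM in RPM lines, and like Igf2 was highest in RP replicate 4.

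Igf1r, the signalling receptor (chr7:67952827-68233668, plus strand), was detected at a low level in every library. It was at 0.963, 1.20, 2.56 and 3.53 CPM in the RP lines and at 1.66, 4.11, 1.89 and 1.12 CPM in the RPM lines. The ranges overlapped widely, and the difference was 0.06 ± 0.37 (SE, log2 scale, limma adjusted p = 0.947, exact permutation p = 0.914, n = 4 each). It was at 2.14, 1.56 and 1.99 CPM with empty vector and at 2.54, 3.49 and 2.19 CPM with addback. Igf1r was thus the sole listed member that was higher in all 3 addback libraries than in all 3 empty vector libraries, with a mean 1.44 times that of empty vector. All these values rest on 8 to 33 reads, and the highest of the 14 was that of untransduced RPM replicate 2.

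Igf2r (chr17:12682406-12769664, minus strand) was the receptor with the larger level and the wider spread. The RP lines held 479, 532, 9.75 and 30.6 CPM, and the RPM lines 586, 381, 219 and 274 CPM. RP replicates 3 and 4 lay far below the other 6 lines, and RP replicates 1 and 2 lay within the RPM range. The difference was 1.82 ± 1.21 (SE, log2 scale, limma adjusted p = 0.484, exact permutation p = 0.371, n = 4 each), and 1.56 without RPM replicate 1. It ran from 0.77 without RP replicate 3 to 2.64 without RP replicate 2, and was 0.47 by both edgeR and DESeq2. Among genes with a mean of at least 1 CPM in the lines, the spread of Igf2r across the RP lines (SD of log2 2.83) was wider than that of 99.8% of 13756 genes, whose median SD was 0.29. With empty vector Igf2r was at 386, 354 and 400.5 CPM and with addback at 250.4, 261 and 177 CPM. The groups did not overlap, and the empty vector mean of 380 ± 23.9 CPM (SD, n = 3) was 1.66 times the addback mean. In untransduced RPM replicate 2 it was at 381 CPM, and the empty vector mean was 0.998 times and the addback mean 0.603 times that level.

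Airn, the long noncoding transcript that runs antisense to Igf2r and silences its paternal allele in imprinting, was listed in both tables. It was at 0.120, 24.5, 47.1 and 34.4 CPM in the RP lines and at 0, 15.5, 19.1 and 23.3 CPM in the RPM lines. The lines with the lowest Igf2r, RP replicates 3 and 4, had the highest Airn, and RP replicate 1 and RPM replicate 1 had 1 and 0 Airn reads with Igf2r at 479 and 586 CPM. RP replicate 2 held both transcripts, with Airn at 24.5 CPM and Igf2r at 532 CPM. In the transduced cells Airn was at 20 to 25.01 CPM with empty vector and 9.77 to 17.8 CPM with addback, lower with addback as Igf2r was. Without knowledge of strand, reads where the genes overlap cannot be assigned to either.

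**Figure D2:**
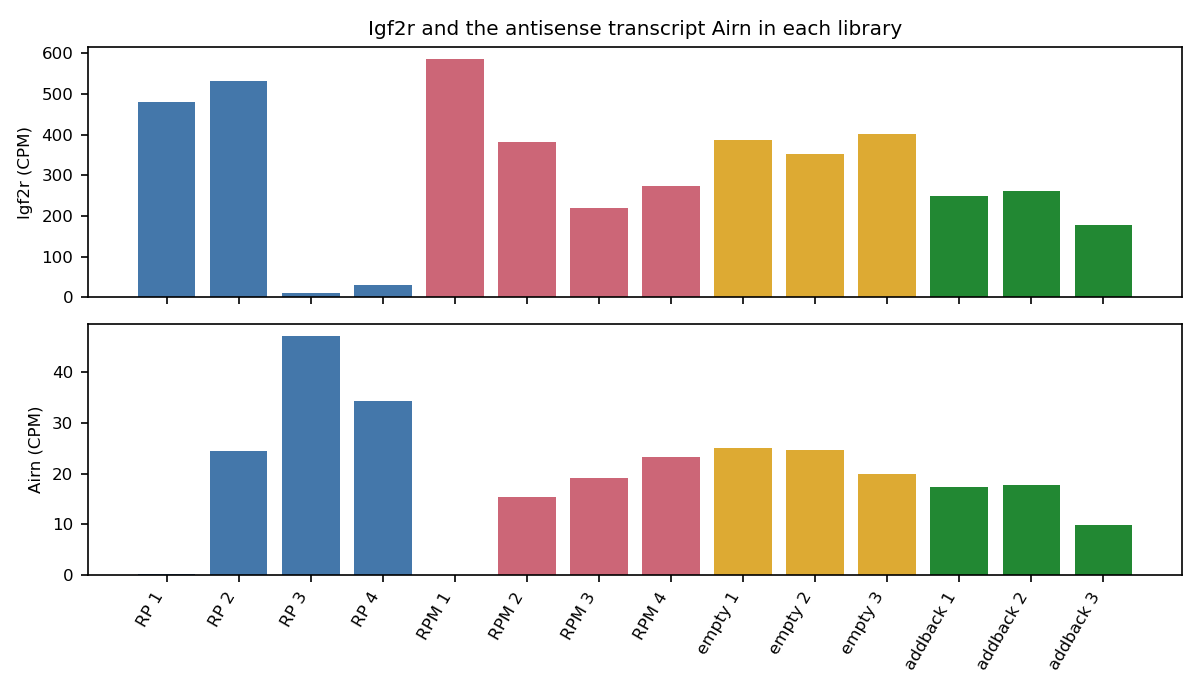
Bars give the level of Igf2r (top) and of its antisense transcript Airn (bottom) in CPM in each of the 14 libraries, coloured by group. RP replicates 3 and 4 have Igf2r at 9.75 and 30.6 CPM with the highest Airn levels, and RP 1 and RPM 1 have Airn at 0.120 and 0 CPM.

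Igfbp5 carried most of the binding protein signal. Per gene length (RPKM), it ranked 6 to 68 among the listed genes of the 8 lines, and its share of the summed Igfbp RPKM was 94.0 to 99.2% in RP lines. In RPM lines the share was 97.9, 73.1, 98.3 and 98.95%, lowest in RPM replicate 2, where Igfbp3 made up 26.5%. Igfbp5 lies tail to tail with Igfbp2 on chromosome 1 (Igfbp5 at chr1:72857932-72874884 on the minus strand, Igfbp2 at chr1:72824503-72852474 on the plus strand). It was at 1968, 1326, 5953 and 7307 CPM in the RP lines and at 2164, 3266, 4043 and 6374 CPM in the RPM lines. The RP lines split into a lower and a higher pair on either side of 3 of the RPM lines, and the difference was 0.17 ± 0.61 (SE, log2 scale, limma adjusted p = 0.91, exact permutation p = 0.857, n = 4 each). Its sign turned under edgeR and DESeq2, at -0.063 in both. In the transduced cells Igfbp5 was at 5547, 5355 and 5125 CPM with empty vector and at 2390, 2311 and 1767 CPM with addback. The empty vector mean was 2.48 times the addback mean, and untransduced RPM replicate 2 lay between them at 3266 CPM.

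Igfbp3, the main carrier of IGFs in serum (chr11:7206086-7213923, minus strand), was at 7.34, 43.3, 29.3 and 88.0 CPM in the RP lines and at 23.6, 618, 29.9 and 31.0 CPM in the RPM lines. RPM replicate 2 stood alone, and the other 3 RPM lines lay within the RP range. The difference was 0.98 ± 1.11 (SE, log2 scale, limma adjusted p = 0.689, exact permutation p = 0.543, n = 4 each), and it turned to -0.12 without RPM replicate 2. The authors' deposited table called it higher, at 2.06 with an FDR of 1.36e-08. In the transduced cells, which carry the name of that line, Igfbp3 was at 799, 881 and 829 CPM with empty vector and at 297, 275 and 289 CPM with addback. The empty vector mean was 2.91 times the addback mean and 1.35 times the untransduced level, and the addback mean was 0.465 times the untransduced level.

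Igfbp2, which binds both ligands, was at 0.481, 0.481, 80.6 and 4.24 CPM in the RP lines and at 0.128, 4.61, 1.89 and 2.11 CPM in the RPM lines. It was high in RP replicate 3 alone, and without that line the sign of the difference turned, from -1.01 ± 1.22 (SE, log2 scale, limma adjusted p = 0.711, exact permutation p = 0.657, n = 4 each) to 0.28. The authors' deposited table called it lower in RPM lines, at -3.29 with an FDR of 0.000164. With empty vector it was at 411, 381 and 386 CPM, above all 8 untransduced lines, and with addback at 5.34, 6.97 and 4.63 CPM. The mean of 393 ± 16.2 CPM (SD, n = 3) with empty vector was 69.6 times the mean of 5.65 ± 1.20 CPM (SD, n = 3) with addback, a difference of -5.90 on the log2(CPM + 1) scale and of -5.79 without addback replicate 3. Untransduced RPM replicate 2 held 4.61 CPM (37 reads), so that the empty vector mean was 85.2 times and the addback mean 1.22 times the untransduced level.

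Igfbp4 (chr11:99041244-99054392, plus strand) was low, at 0.241, 0.120, 2.20 and 0.471 CPM in the RP lines and 0.255, 0.997, 3.55 and 0.991 CPM in the RPM lines. The groups overlapped, with a difference of 0.45 ± 0.46 (SE, log2 scale, limma adjusted p = 0.656, exact permutation p = 0.4, n = 4 each). Leaving out 1 line gave 0.096 without RPM replicate 3 to 0.78 without RP replicate 3. Without RPM replicate 1 the differences of the members not yet given were 0.12 for Igf1r, 0.42 for Igfbp5, 1.43 for Igfbp3, -0.58 for Igfbp2 and 0.72 for Igfbp4 on the log2 scale, none past limma's threshold. Values for Igfbp6, at chr15:102144362-102149511, and Igfbp7, at chr5:77349240-77408041, were not analysed here.

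**Figure D3:**
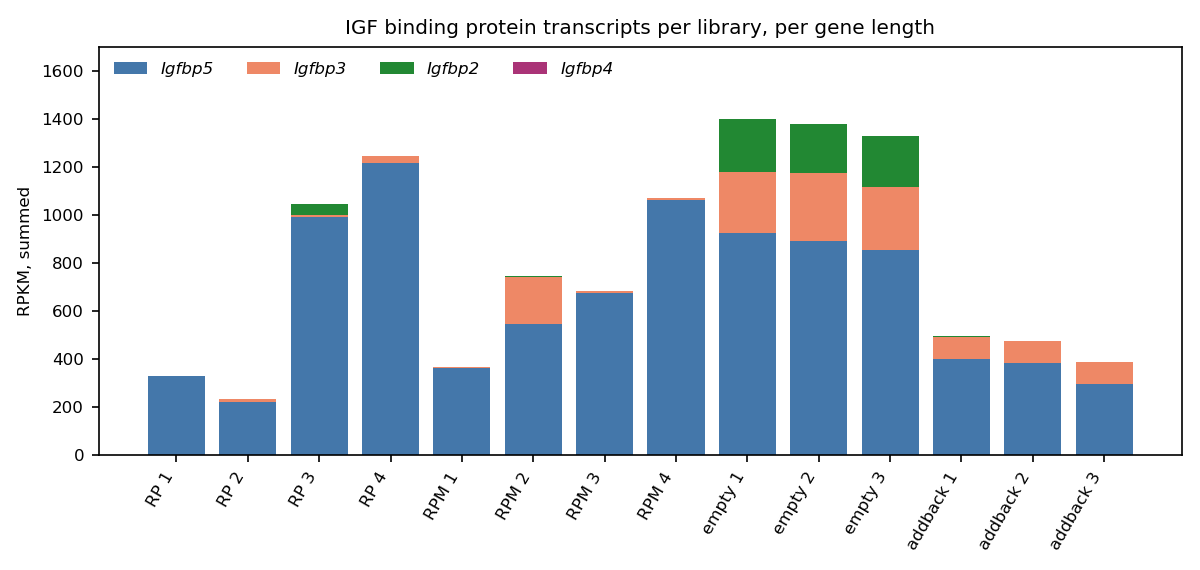
Stacked bars give the RPKM (CPM divided by gene length) of the listed Igfbp genes in each library. Igfbp5 dominates the 8 lines, and with empty vector Igfbp2 adds 15.0 to 15.9% and Igfbp3 18.2 to 20.4% of a sum of 1327 to 1402 RPKM. With addback the sum is 389 to 496 RPKM.

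Summed over the listed binding proteins, the level per length was 235 to 1247 RPKM in RP lines and 368 to 1073 RPKM in RPM lines, with overlapping ranges. It was 1327 to 1402 RPKM with empty vector and 389 to 496 RPKM with addback, without overlap. Igfbp2 made up 15.0 to 15.9% of the sum in the empty vector libraries and 0.583 to 0.792% in the addback libraries, while Igfbp5 made up 64.3 to 65.9% and 75.6 to 80.7%.

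Over the 6 members listed in the addback experiment, 5 were lower and 1 was higher with addback, and none had libraries that overlapped between the groups. Over all 14056 genes, 61.9% did not overlap (30.2% lower and 31.7% higher), and since Igf1 and Igfbp2 were chosen for this contrast nothing is read from the members' count. A mean CPM + 1 at least 32 times lower with addback was found for 16 of 14056 genes (0.114%), Igf1 and Igfbp2 included, and at least 4 times lower for 1.21%. Igf1 and Igfbp2 were chosen for this fall, so nothing is read from their place among these genes. The authors' deposited table called the 5 lower members lower and did not call Igf1r. Of all 14056 genes it called 1845 lower and 2656 higher, 32% in either direction. Its log2 changes were -6.81 for Igf1, -6.11 for Igfbp2, -1.54 for Igfbp3, -1.31 for Igfbp5 and -0.73 for Igf2r. These calls rest on the contrast for which Igf1 and Igfbp2 were chosen, so nothing is read from their number. Without addback replicate 3 the differences on the log2(CPM + 1) scale went from -1.32 to -1.18 for Igfbp5, from -0.74 to -0.57 for Igf2r and from 0.36 to 0.47 for Igf1r, and stayed at -1.54 for Igfbp3. In cultures measured in bulk, fewer cells with a transcript and less of it per cell cannot be told apart.

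**Figure D4:**
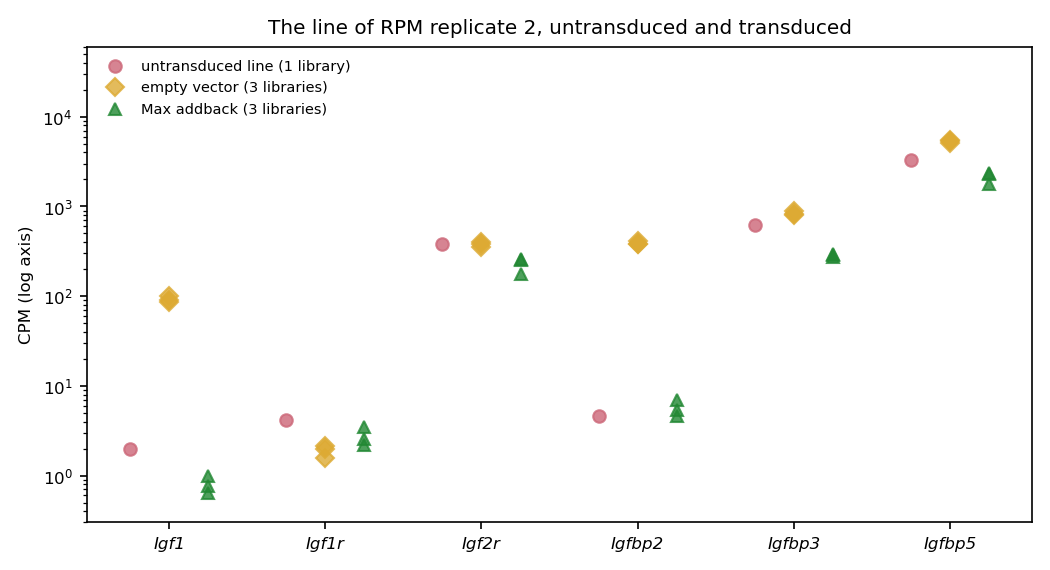
Level in CPM (log axis) of the 6 members listed in both tables, in the untransduced library of RPM replicate 2, the 3 empty vector libraries and the 3 addback libraries. Igf1 and Igfbp2 are high with empty vector (86.0 to 99.7 and 381 to 411 CPM), while the untransduced library (1.99 and 4.61 CPM) lies with or near the addback libraries.

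The untransduced library differed from the empty vector mean by at least 2-fold in either direction for 11.7% of 13528 shared genes and from the addback mean for 5.68%, both as ratios of CPM + 1. Empty vector exceeded the untransduced library at least 16-fold for 6 genes (0.0444%), among them Igf1 and Igfbp2. Genes at least 4-fold lower with addback than with empty vector and at least 4-fold higher with empty vector than untransduced numbered 52 (0.384%), and Igf1 and Igfbp2 were the members among them. Both counts use the empty vector values by which Igf1 and Igfbp2 were chosen, so nothing is read from their place in them. The fibroblast markers differed between the transduced groups in both directions. Of 8, 4 were listed, and Col1a2, Col3a1, Lum and Pdgfra were not. The sum of the 4 was 33.7 to 44.3 CPM with empty vector and 17.0 to 21.0 CPM with addback. Within that list Col1a1 was at 3.84 to 6.41 CPM with empty vector, 0.381 to 0.771 CPM with addback and 0.748 CPM untransduced, and Dcn at 22.4 to 35.4, 4.96 to 6.35 and 14.5 CPM. Pdgfrb and Thy1, of the same list, were higher with addback, at 3.86 to 6.55 against 0.142 to 0.858 CPM and at 6.87 to 7.97 against 4.28 to 5.15 CPM. Untransduced, Pdgfrb was at 2.62 CPM and Thy1 at 14.5 CPM, the latter above both transduced groups. Summed neuroendocrine markers were 5048 to 5367 CPM with empty vector and 9173 to 10584.5 CPM with addback. Within that list Calca overlapped between the groups, at means of 2787.9 CPM with empty vector and 2560.2 CPM with addback. The other listed markers were higher with addback, among them Scg2, at a mean of 4065.7 against 1101.6 CPM. Smooth muscle and pericyte markers (4 of 6 listed, Acta2 and Cnn1 not) summed to 2.44 to 5.68 CPM in the empty vector libraries and to 9.64 to 12.2 CPM in the addback libraries, where Myh11 had a mean of 7.26 CPM against 0.343 CPM. Within that list Rgs5 was also higher with addback, at a mean of 1.43 against 0.190 CPM. Des was lower with addback, at a mean of 0.972 against 2.36 CPM, and Tagln overlapped between the groups. Endothelial markers (3 of 6 listed, Cdh5, Kdr and Emcn not) summed to 5.65 to 6.54 and to 7.33 to 10.1 CPM, with Vwf higher and Tek lower in the addback libraries. Of 7 macrophage and leukocyte markers 1 was listed, Cd68, at 1.83 to 3.73 CPM in both groups together. The part of these markers in the differences of Igf1 and Igfbp2 was not tested.

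Across the 4 RP lines, the spread of 3 members was wider than that of over 99% of genes: Igf2r (99.8%), Igf1 (99.7%) and Igfbp2 (99.7%). Igfbp3 and Igfbp5 followed at 96.4% and 94.4%. In the RPM lines Igfbp3 was the most spread member, at 98.8%, and Igf2r stood at 75.9%. Over the 8 lines Igf2r had a Pearson correlation of -0.881 with Igfbp2 and of -0.832 with Igf1, and Igf1 had one of 0.853 with Igfbp5, as a description of 8 shared libraries on the log2(CPM + 1) scale. RP replicates 3 and 4 had the lowest Igf2r and the highest Igf1 of the 8 lines, and no correlation was computed without them.

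Among 13755 other genes, those with the pattern most like that of Igf1 over the 8 lines were Ndufa13 (Pearson 0.95), Pde11a (0.948) and Msrb2 (0.942). Every correlation in this paragraph is among the highest of 13755 over 8 libraries. The level that unrelated genes would reach was not computed, so no link between genes is read from them. Ndufa13 spanned 49.35 to 74.7 CPM, where Igf1 spanned 0 to 36.0 CPM. Pde11a, a phosphodiesterase gene, was at 2.29, 4.21, 102 and 77.4 CPM in the RP lines and 5.11, 15.7, 7.22 and 23.4 CPM in the RPM lines, highest in the pair of RP lines that was highest in Igf1. The genes most like Igfbp2 were Tafa5 (0.979), Ecrg4 (0.945) and Med12 (0.939), and Ecrg4 reached 20.7 CPM in RP replicate 3, with 2.71 CPM as the highest level of the other 7 lines. Those most like Igf2r were Mindy1 (0.953), Zfp141 (0.949) and Rassf3 (0.947), and those most like Igfbp3 were Nedd8 (0.979), Ap3m1 (0.971) and Smim4 (0.971). For Igfbp5 they began with Dzip3 (0.975), for Igf1r with Kctd14 (0.973), for Igf2 with Pih1d1 (0.961) and for Igfbp4 with Mknk1 (0.941).

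Beyond the members, 63 genes of the IGF pathway were read from the same fits. Between the lines, limma called 0 of the 53 listed, with 6 (11.3%) at an unadjusted p under 0.05 against 15.9% of all genes, and their median difference was 0.03 against -0.01 over all genes. edgeR called 0, with 6 (11.3%) at an unadjusted p under 0.05 against 14.9% of all genes. DESeq2 called 2 of the 53 (3.77%, against 4.58% of all genes), both lower in RPM lines, the lipid phosphatase gene Inppl1 at -0.58 (adjusted p = 0.0301) and the adaptor gene Sh2b1 at -0.45 (adjusted p = 0.0119). Irs4, an insulin receptor substrate, was at 1066, 1344, 2786 and 2009 CPM in the RP lines and at 1219, 760, 61.5 and 46.2 CPM in the RPM lines. RPM replicates 3 and 4 were far below the rest, and the test was not passed (-2.88, limma adjusted p = 0.259). It was picked for its size after its values were seen.

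With addback, limma called 28 of the 52 listed pathway genes (53.8%), 16 higher and 12 lower, against 53.2% of all genes (27.7% higher and 25.5% lower), so the share of the list was near the background. Without addback replicate 3 the number was 37 (71.2%), 22 higher and 15 lower, and the share of all genes called was 64.3%. Of 10 receptor adaptors 4 rose and 4 fell, of 15 genes of PI3 kinase, AKT and mTOR 3 rose and 4 fell, and of 12 brakes and FOXO factors 5 rose and 1 fell. None of the 4 genes of mannose 6-phosphate sorting, the other task of IGF2R, was called by limma, edgeR or DESeq2, against 53.2%, 52.9% and 47.7% of all genes. By each, 1 of the 4 had an unadjusted p under 0.05, against 58.9%, 58.4% and 53.2% of all genes.

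Upstream of Igf1, the growth hormone receptor gene Ghr was at 0.572, 0 and 0 CPM with empty vector and at 9.53, 10.8 and 10.0 CPM with addback. It rose by 3.26 ± 0.20 (SE, log2(CPM + 1) scale, limma adjusted p = 6.92e-07). Since it started near 0 the size depends on the pseudocount, at 4.04 with 0.5 and 1.55 with 5, and was 5.59 by edgeR. Socs2, the feedback inhibitor of that receptor, rose by 0.88 ± 0.11, from a mean of 19.7 to 37.0 CPM (limma adjusted p = 8.62e-05). Pappa, the gene of the protease PAPP-A that frees IGFs from their carriers, was at 5.43, 8.10 and 7.02 CPM with empty vector and at 6.36, 3.24 and 4.63 CPM with addback, and did not pass the test (-0.47, limma adjusted p = 0.0914). The stanniocalcins, which inhibit PAPP-A, moved apart. Stc1 was at 62.9, 58.5 and 53.1 CPM with empty vector and at 205, 213 and 244 CPM with addback, and Stc2 at 22.4, 19.2 and 25.8 CPM and at 8.64, 7.10 and 8.48 CPM. Stc1 rose by 1.91 ± 0.09 and Stc2 fell by 1.37 ± 0.14 (SE, log2 scale, limma adjusted p = 1.39e-07 and 2.58e-05).

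At the membrane, Insr, the insulin receptor gene, fell from 79.8, 89.1 and 87.6 CPM to 60.9, 60.5 and 50.3 CPM (-0.57 ± 0.10, limma adjusted p = 0.000682). The related orphan receptor gene Insrr rose from a mean of 14.3 ± 1.39 to 30.6 ± 2.09 CPM (SD, n = 3 each, limma adjusted p = 3.42e-05). Irs2 and Irs1, of the substrates that link these receptors to PI3 kinase, were lower. Irs2 was at 114, 117 and 121 CPM with empty vector and at 61.0, 60.4 and 43.7 CPM with addback (-1.09 ± 0.12, limma adjusted p = 4.62e-05). Irs1 differed by -0.92 ± 0.26 (limma adjusted p = 0.0137). Irs4, at a mean of 1566.5 CPM with empty vector and 1230.7 CPM with addback, did not pass the test (-0.37 ± 0.14, limma adjusted p = 0.0514). The call of Irs1 was lost without empty vector replicate 2 (limma adjusted p = 0.0541), and without addback replicate 3 its difference was -0.54 (limma adjusted p = 2.48e-05). Gab1, a docking protein gene, was at 27.7, 26.4 and 25.8 CPM and at 6.36, 5.98 and 5.01 CPM, the largest fall of the list (-2.03 ± 0.12, limma adjusted p = 6.02e-07).

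Adaptors that bind the activated receptors differed among themselves. Sh2b2 (2.498) and Grb14 (1.44) rose, both from under 1 CPM in each empty vector library, and Grb10 fell by 0.77 from a mean of 1.496 CPM. Further down, Pik3cb, a catalytic subunit of PI3 kinase, fell by 0.77, from a mean of 47.4 to 27.4 CPM. Pdpk1, the kinase that activates AKT, fell by 0.51, and its call was lost without empty vector replicate 1 (limma adjusted p = 0.0527). Without addback replicate 3 the difference of Pdpk1 was -0.32 (limma adjusted p = 5.63e-05). Foxo1, the transcription factor that AKT keeps out of the nucleus, rose by 1.26 ± 0.11, from 12.7, 11.2 and 13.6 CPM to 31.7, 29.8 and 32.3 CPM (limma adjusted p = 8.03e-06). Igf2bp2, which encodes a binding protein of Igf2 mRNA, was at 0.286, 0 and 0.153 CPM with empty vector and at 7.88, 6.23 and 7.20 CPM with addback (2.82 ± 0.17, limma adjusted p = 5.67e-07). The largest differences of the list, those of Ghr, Igf2bp2 and Sh2b2, all began at or near the level of 3 reads. With a pseudocount of 5, Igf2bp2 was at 1.23, Sh2b2 at 1.19, Grb14 at 0.47 and Grb10 at -0.25, and by edgeR they were at 5.45, 3.69, 3.39 and -1.66, all with the call kept. Untransduced RPM replicate 2, normalised separately, was within the addback range for Gab1 (5.86 CPM), Sh2b2 (7.60), Insr (50.5) and Pdpk1 (153). It lay on the far side of the addback range from empty vector for Pik3cb (23.1), Insrr (37.15), Socs2 (62.7) and Grb10 (0.125). Between the groups lay Foxo1 (29.5), Irs2 (85.4), Stc1 (109), Stc2 (15.7), Ghr (2.49), Igf2bp2 (3.49) and Grb14 (0.997). Irs1 (48.6) was within the empty vector range.

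**Figure D5:**
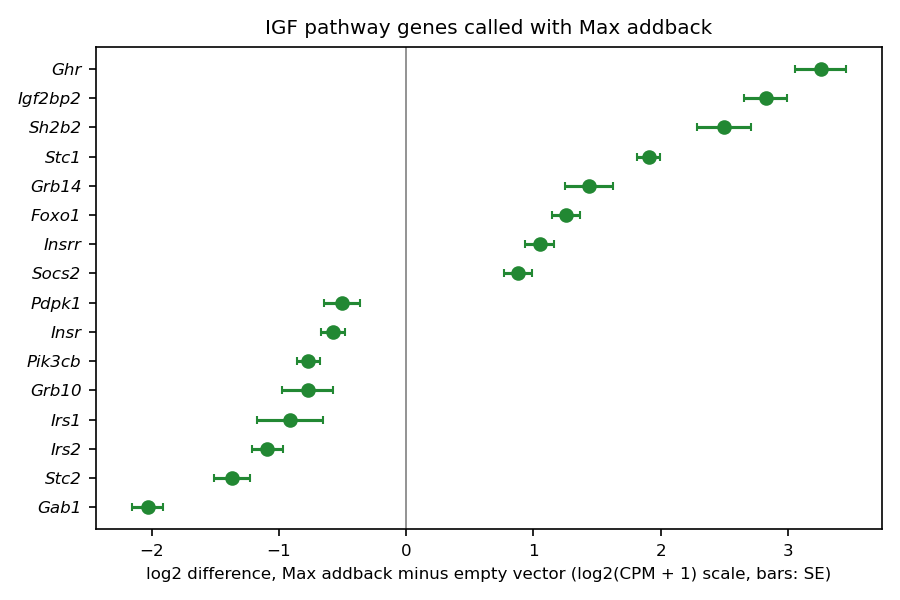
Points give the difference of addback from empty vector on the log2(CPM + 1) scale with its standard error for the 16 named pathway genes, up to 8 in each direction. Ghr, Igf2bp2 and Sh2b2 lie highest at 3.26, 2.82 and 2.498, and Gab1 lies lowest at -2.03.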

How the data were processed

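RNA-seq values of 14 mouse thyroid tumour cell libraries were used, in 2 tables normalised separately. Per the submitters' processing notes, the tools were bcl2fastq 1.8.4, TopHat2 2.1.0, HTSeq 0.6.1 and edgeR, on mm10. No source used here names the annotation or the filter that chose the listed genes. Per the file headers, the authors deposited TMM-normalised CPM (a signal, since a library's sum is not fixed), RPKM, log2 fold changes and levels, p-values with FDR, and a score for their calls. CPM values were whole multiples of 1 read for 100% of values (tolerance 0.01 of a read), which gave back the read counts.

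Groups came from sample titles. limma 3.58.1 (limma-trend, R 4.3.3) was fitted on log2(CPM + 1) over all genes of a table, with Benjamini-Hochberg adjustment and a threshold of 0.05, and was tested on simulated data. Single members in the lines also had a two-sided exact permutation test. Alternatives were edgeR 4.0.16 and DESeq2 1.42.0 on recovered reads, pseudocounts of 0.5 and 5, a mean of at least 1 CPM, a replicate block and each library left out. Genes were located in GENCODE vM21 (14354 of 14360 and 14050 of 14056 identifiers found). Named pathway genes were called genes, at most 8 per direction. For likeness, the 3 genes of highest Pearson correlation were taken, from genes with a mean of at least 1 CPM. Members and lists were chosen with earlier results of these data known. Replicates are separate lines in the RP and RPM groups and, by library name, cultures of 1 line in the addback experiment, where p-values may measure technical spread.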

Additional observations from a re-analysis of the deposited data

Results flagged for a closer look

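In 4 of 16 sets of 4 lines (8 members in RP and RPM lines), 1 library lay apart from the rest by Dixon's test on CPM values. That is 25% of the sets, where the same rule picked 8.17% of the 28720 sets of all listed genes and would pick about 1 of 20 sets of normally distributed values. Igfbp2 was at 80.6 CPM in RP replicate 3, where the nearest other RP line had 4.24 CPM. Igfbp3 was at 618 CPM in RPM replicate 2, where the nearest other RPM line had 31.0 CPM. Igf2 was at 0.893 CPM in RPM replicate 1 against 0.249 CPM in the nearest, and Igfbp4 was at 2.20 CPM in RP replicate 3 against 0.471 CPM, both on few reads.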

How the results depend on the processing

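Between the lines, none of the 110 alternative values of single members passed the threshold. DESeq2 gave no adjusted p for 2 further ones. Of the 110, 100 kept their sign and 10 turned: Igf1r to -0.12 without RP replicate 1, -0.07 without RP replicate 2 and -0.19 without RPM replicate 2, Igfbp2 to 0.28 without RP replicate 3, Igfbp3 to -0.12 without RPM replicate 2, and Igfbp5 to -0.07, -0.26 and -0.09 without RP replicates 1 and 2 and RPM replicate 4, and to -0.0629 by edgeR and -0.0627 by DESeq2. With 1 line left out, Igf1r ran from -0.19 to 0.28, Igfbp2 from -1.65 to 0.28, Igfbp3 from -0.12 to 1.48, Igfbp5 from -0.26 to 0.56, Igf1 from -1.79 to -0.06, Igf2 from -1.39 to -0.68, Igf2r from 0.77 to 2.64 and Igfbp4 from 0.096 to 0.78. By edgeR the sizes differed from limma's by over 1.5 times for Igf1 (-2.66), Igf2 (-2.64), Igfbp2 (-3.29), Igfbp3 (2.06), Igfbp4 (0.93) and Igf2r (0.47). The count of genes called over the whole table, 48 by limma, was 3 by edgeR and 658 by DESeq2 and ran from 0 to 261 with 1 line left out (261 with RPM replicate 1 left out, and 0 with replicate 3 of either group or RPM replicate 4 left out). The pathway count was 2 by DESeq2. In the addback experiment every alternative member value kept its sign: 51 stayed within the spread and 3 moved further, Igf1 to -6.16 and -4.06 with pseudocounts of 0.5 and 5, and Igfbp2 to -5.23 with 5. Igf1r, at 0.36, was at 0.16 with a pseudocount of 5 and at 0.22 without addback replicate 2. For named pathway genes, 189 alternatives kept the call and 2 lost it. The cause of these changes was not tested.

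Replicate numbers were not taken to pair the libraries: same-numbered deviations correlated at 0.0114 to 0.406 in the lines and at 0.0202 to 0.0813 in the addback experiment. The same-numbered library was the best match for number 1 in the lines and for numbers 1 and 3 in the addback experiment. With the replicate block, 0 genes were called between the lines (2463 at an unadjusted p under 0.05, limma) and 7438 with addback, 30 of them pathway genes. Levels under 3 reads (0.353 to 0.458 CPM) limit Igf2, Igfbp4 and Igf1 in several lines.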
